A study of Mus musculus with 10 samples.

Results

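The genes for the protein subunits of the mitochondrial ribosome were followed in mouse mammary tumours with and without doxycycline-induced hepsin. Members were the protein-coding genes of the deposited count table whose mouse symbol starts with Mrps (small subunit) or Mrpl (large subunit) followed by a number, 78 of 55335 genes in all. The small subunit contributed 29 genes and the large subunit 49. Another 5 genes, pseudogenes with matching symbols, were left out. Members lay on 17 chromosomes, with 11 on chromosome 11 and 8 on chromosome 17.

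RNA was taken from 10 whole tumours in the FVB background, 5 in each group. Every tumour grew from mammary epithelial cells that carried the Wap-Myc transgene, in which the milk protein promoter Wap drives Myc in secretory mammary cells, and that had been transduced with the lentiviral construct pIND21-HPN, so the controls carried the hepsin construct too. Cells were placed in fat pads of hosts aged 3 weeks, and Myc was switched on by 2 pregnancies from 8 weeks of age. The 5 DOX tumours came from hosts given doxycycline at 2 mg/ml in 5% sucrose from 3 days after transplantation, and the 5 no_DOX tumours from hosts given sugar water, all collected at a size of 1 cm. Doxycycline is a tetracycline, a class of antibiotics known to inhibit translation on bacterial and mitochondrial ribosomes, and no control received it, so effects of the drug and of hepsin cannot be told apart here. Whether 1 host carried several of the tumours is not stated in the labels, and the p-values below describe the spread among these 10 tumours.

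Total counts ran from 14256948 to 39358457 per tumour, and DOX 3 alone exceeded 20469533. The mouse Hpn gene averaged 21.7 ± 4.69 CPM (counts scaled to library size) without and 31.8 ± 8.55 CPM with doxycycline (SD, n = 5), and its log2 fold change of 0.55 had an adjusted p of 0.247 (edgeR quasi-likelihood test, Benjamini-Hochberg over all genes tested). The groups overlapped for Hpn, with DOX 3 at 25.1 CPM and no_DOX 1 at 25.8 CPM. Whether reads from the construct are counted at the mouse gene was not tested. Epithelial markers were present in every tumour, with Epcam between 241.3 and 325.8 CPM.

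Mitochondrial ribosomes translate the few membrane proteins that mitochondrial DNA encodes, all of them core subunits of the respiratory chain and ATP synthase. Their ribosomal RNAs come from mitochondrial DNA, but all of their proteins are encoded in the nucleus, made on cytosolic ribosomes and imported. The small subunit reads the messenger RNA and the large subunit joins the amino acids, and both carry proteins with bacterial counterparts as well as proteins that are found only in mitochondria. MYC is known to raise transcription of many genes for ribosomes and mitochondria.

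The genes as a group were slightly lower in DOX tumours, by about the same amount in both subunits, and edgeR called no single gene at the threshold, where DESeq2 called 1 and limma voom 9. Of the 78 genes, 77 passed the filter on low counts, and 76 of these had a negative log2 fold change (DOX over no_DOX), against 49.5% of the 16167 genes tested. The median log2 fold change was -0.14 for the 29 small-subunit genes, a level 9.42% lower, and -0.15 for the 48 large-subunit genes, 9.94% lower, where the median over all genes tested was 0.0024. Without TMM scaling, on total counts alone, the medians were -0.12 in each subunit and that of all genes 0.034. The range ran from -0.39 for Mrpl12 to 0.07 for Mrpl43, and standard errors from 0.06 to 0.14. In bulk tissue, fewer cells of a type and less RNA per cell cannot be told apart.

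The edgeR test called 0 of the 77 genes at an adjusted p under 0.05, and 0 of all 16167 genes (0%). At an unadjusted p under 0.05 it put 24 members lower, 8 of the small and 16 of the large subunit, which is 31.2% of those tested against 7.83% of all genes, and 0 higher against 8.2%. DESeq2 called 1 member, Mrpl27, where it called 0.796% of all genes lower. Limma voom with sample weights called 9 members lower, where it called 2.68% of all genes lower, and gave the deepest tumour, DOX 3, a weight of 4.65. The count of 24 moved with single tumours: it was 45 without no_DOX 3 (10.7% of all genes), 11 without no_DOX 1 (6.49%), 13 without no_DOX 4 (5.06%), 13 without DOX 5 (5.85%), 15 without DOX 1 (6.12%) and 15 without DOX 3 (5.63%). It was 26 without no_DOX 2 (6.24%), 17 without no_DOX 5 (6.42%), 17 without DOX 4 (6.84%) and 34 without DOX 2 (10.9%). It was 12 on total counts alone (4.59%) and 7 when no_DOX 4 and DOX 5 were both left out (4.23%), a pair chosen after seeing the data.

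**Figure D1:**
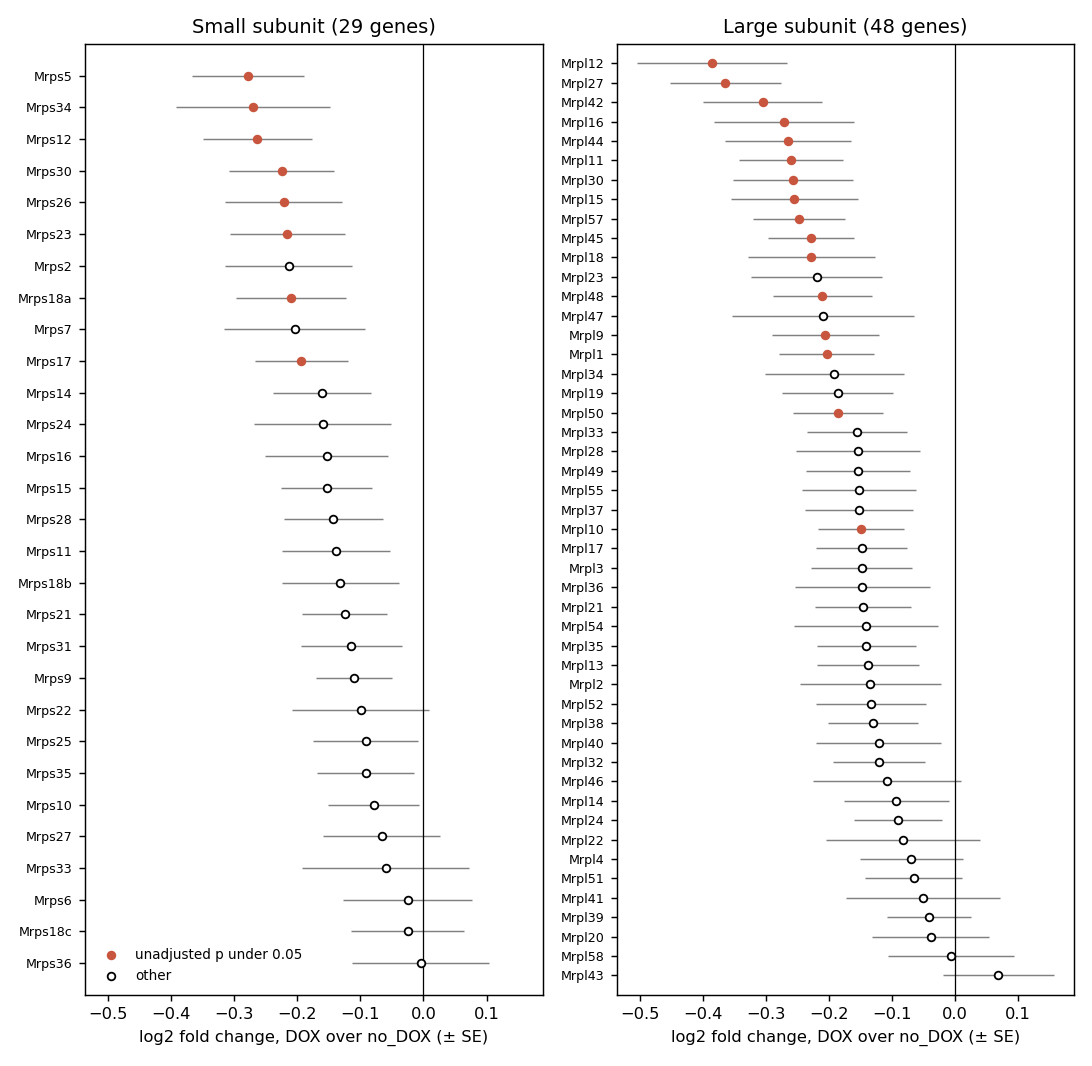
Log2 fold change of each of the 77 tested genes (x axis, DOX over no_DOX, bars are ± 1 SE from edgeR), the small subunit on the left and the large subunit on the right. All 29 small-subunit and 47 of 48 large-subunit points lie below 0, and the filled points mark the 24 genes with an unadjusted p under 0.05.

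Tumours within each group ranged more widely than the group means differed. With each gene's log2 CPM centred on its mean over the 10 tumours, the mean over the 77 genes was 0.15, 0.03, -0.11, 0.21 and 0.10 in no_DOX 1 to 5. It was -0.05, 0.02, -0.08, -0.10 and -0.17 in DOX 1 to 5. Group means were 0.08 ± 0.13 in controls and -0.08 ± 0.07 with doxycycline (SD, n = 5), a difference of 0.15 on the log2 scale. The groups overlapped: no_DOX 3 lay below 4 of the 5 DOX tumours, and DOX 2 lay close to no_DOX 2.

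The same tumours were extreme in most genes. Among controls, no_DOX 3 was the lowest tumour for 60 of the 77 genes (77.9%, against 23.2% of all genes tested), and no_DOX 4 was the highest for 48 (62.3% against 22.0%). Among DOX tumours, DOX 5 was the lowest for 39 genes (50.6% against 24.6%) and DOX 2 the highest for 44 (57.1% against 27.0%). The members thus went up and down together from tumour to tumour within each group. Counts of members, here and above, are therefore not counts of independent observations. All 5 DOX tumours lay below the control median for 48 members (14.7% of all genes tested). At least 4 lay below every control for 15 (6.51% of all genes), and all 5 lay below every control for 3 (1.13% of all genes), Mrpl27, Mrpl57 and Mrpl45. No member had every DOX tumour above every control (1.82% of all genes).

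**Figure D2:**
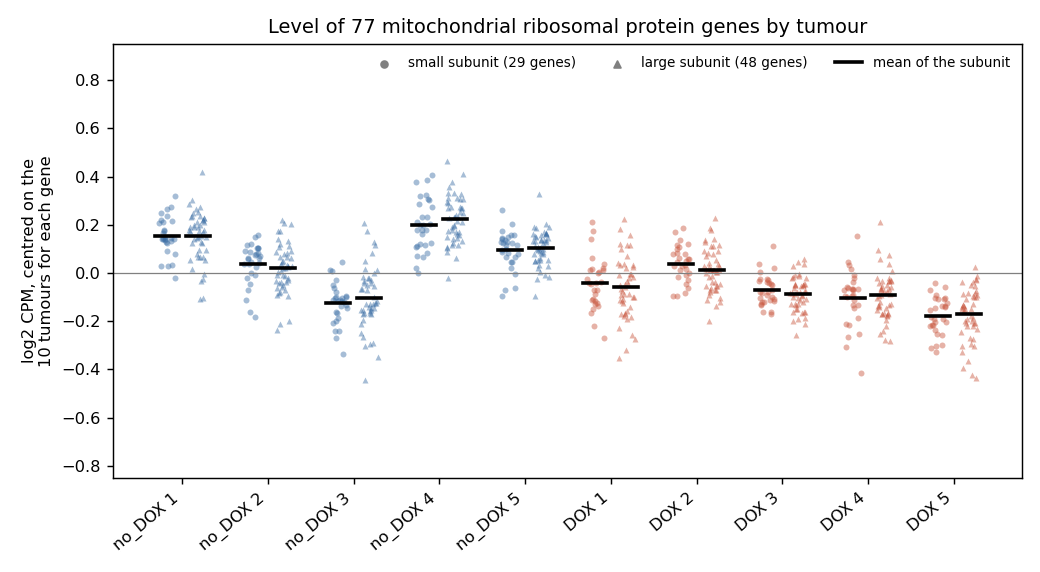
Log2 CPM of each tested gene in each tumour, centred on the gene's mean over the 10 tumours (y axis), with circles for the small and triangles for the large subunit and black bars for subunit means. The bars of the subunits move together, no_DOX 3 lies among the DOX tumours, and DOX 2 lies among the controls.

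**Figure D3:**
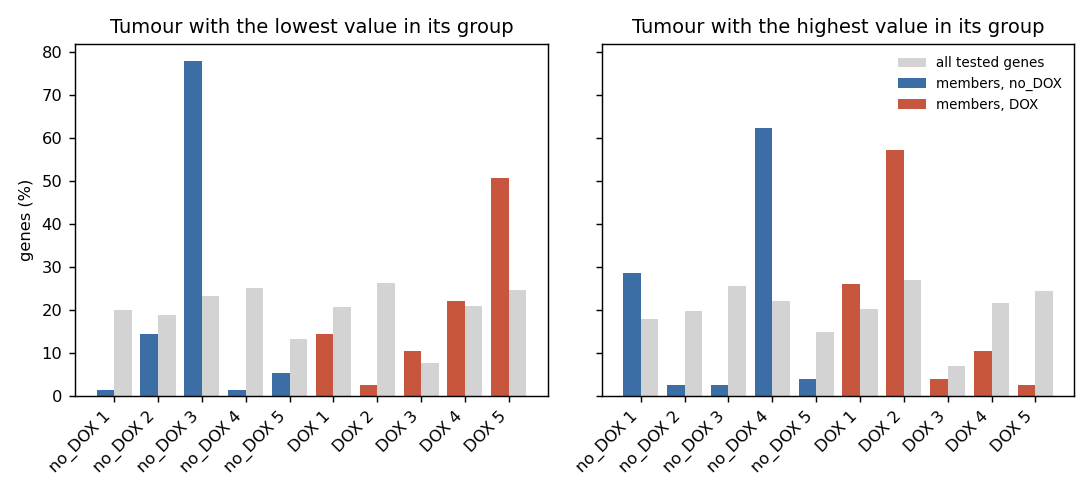
Share of genes (y axis, %) for which each tumour (x axis) was the lowest (left) or the highest (right) of its group, coloured bars for the 77 members and grey bars for all genes tested. The coloured bars of no_DOX 3 (lowest, 77.9%) and no_DOX 4 (highest, 62.3%) stand far above the grey ones.

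In the large subunit, the gene with the smallest p was Mrpl27 (ENSMUSG00000024414, chr11:94653767-94660089 of GRCm38, plus strand), which encodes a counterpart of a bacterial protein that lies near the site of peptide bond formation. It was at 14.6, 14.7, 13.2, 15.5 and 14.7 CPM in no_DOX 1 to 5 and at 11.8, 12.2, 11.8, 11.3 and 9.42 CPM in DOX 1 to 5, from 156 to 474 counts per tumour. Every DOX tumour lay below every control, with DOX 5 lowest. The log2 fold change was -0.36 (SE 0.09), 22.3% lower, with an adjusted p of 0.196 in edgeR, 0.0228 in DESeq2 and 0.0352 in limma voom. With 1 tumour left out at a time, its edgeR adjusted p ran from 0.0834 to 0.378.

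Mrpl57, on chromosome 14, encodes a subunit found only in mitochondrial ribosomes. It was at 21.9, 20.2, 20.6, 23.5 and 20.2 CPM in the controls and at 17.3, 19.7, 17.1, 18.6 and 17.0 CPM with doxycycline. The groups did not overlap, though DOX 2 came close to the lowest controls, and the log2 fold change was -0.25 (SE 0.07, edgeR adjusted p = 0.216, limma voom 0.0371). Mrpl45, at chr11:97315716-97329920 on the plus strand, encodes a mitochondria-specific protein that ties the ribosome to the inner membrane near the exit of the peptide tunnel. It was at 36.3, 34.0, 31.2, 33.5 and 32.9 CPM in controls and at 29.97, 30.7, 29.8, 26.2 and 26.6 CPM with doxycycline. These groups did not overlap either, with no_DOX 3 the lowest control and DOX 4 and 5 the lowest of all, at a log2 fold change of -0.23 (SE 0.07, edgeR adjusted p = 0.221).

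Mrpl12 (ENSMUSG00000039640, chr11:120484613-120489065, plus strand) encodes the protein of the ribosome's stalk, which recruits translation factors. It was at 80.8, 75.1, 64.5, 97.3 and 88.5 CPM in controls and at 61.8, 74.1, 64.3, 58.0 and 52.5 CPM with doxycycline. Among the controls no_DOX 4 was highest and no_DOX 3 lowest, and DOX 2 was the only DOX tumour above no_DOX 3. The log2 fold change was -0.39 (SE 0.12), the most negative of all members, with an edgeR adjusted p of 0.230 and a limma voom adjusted p of 0.041. Mrpl11, which encodes a protein at the base of the same stalk, was at 24.6, 21.4, 20.2, 23.5 and 22.7 CPM in controls and at 21.1, 19.9, 18.3, 17.2 and 17.4 CPM with doxycycline. Only DOX 1 lay within the control range, and the log2 fold change was -0.26 (SE 0.08, edgeR adjusted p = 0.237, limma voom 0.0405).

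Mrpl42, for a mitochondria-specific subunit, was at 52.5, 46.3, 38.3, 52.9 and 47.7 CPM in controls and at 40.7, 40.6, 35.6, 40.9 and 34.7 CPM with doxycycline. Here no_DOX 3 alone overlapped the DOX tumours, and the log2 fold change was -0.31 (SE 0.09, edgeR adjusted p = 0.230, limma voom 0.0352). Limma voom also called Mrpl30, a counterpart of a bacterial large-subunit protein, at 39.2 ± 5.29 CPM against 32.8 ± 1.67 CPM (SD, n = 5, adjusted p = 0.0438). It called Mrpl1, whose bacterial counterpart forms the mobile arm beside the tRNA exit site, at 24.0 ± 1.91 against 20.9 ± 1.27 CPM (adjusted p = 0.0472). Both stood outside the rule for named genes and were added because voom called them.

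The small-subunit gene with the smallest p was Mrps5 (ENSMUSG00000027374, chr2:127587222-127606829, plus strand), whose bacterial counterpart lies at the entry of the messenger RNA channel. It was at 46.3, 46.6, 41.2, 55.7 and 42.6 CPM in controls and at 37.5, 43.0, 37.5, 38.4 and 35.2 CPM with doxycycline. DOX 2 overlapped the controls and the other 4 DOX tumours lay below all of them, at a log2 fold change of -0.28 (SE 0.09, edgeR adjusted p = 0.237, limma voom 0.0489). Mrps12, at chr7:28739641-28741820 on the minus strand, encodes a protein of the decoding centre, where streptomycin resistance mutations arise in the bacterial counterpart. It was at 19.1, 17.3, 15.3, 20.5 and 17.9 CPM in controls and at 15.9, 15.7, 15.0, 14.4 and 14.1 CPM with doxycycline. The control no_DOX 3 lay within the DOX range, and the log2 fold change was -0.26 (SE 0.09, edgeR adjusted p = 0.239, limma voom 0.0458).

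Mrps17, the counterpart of an early-binding bacterial protein, was at 38.4, 35.1, 34.3, 35.9 and 34.2 CPM in controls and at 28.4, 36.0, 31.3, 31.0 and 28.8 CPM with doxycycline. Only DOX 2 reached the control range (log2 fold change -0.19, SE 0.07, edgeR adjusted p = 0.259). Mrps26, for a mitochondria-specific subunit, averaged 29.8 ± 3.45 CPM without and 25.6 ± 2.19 CPM with doxycycline (SD, n = 5, log2 fold change -0.22, edgeR adjusted p = 0.284).

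**Figure D4:**
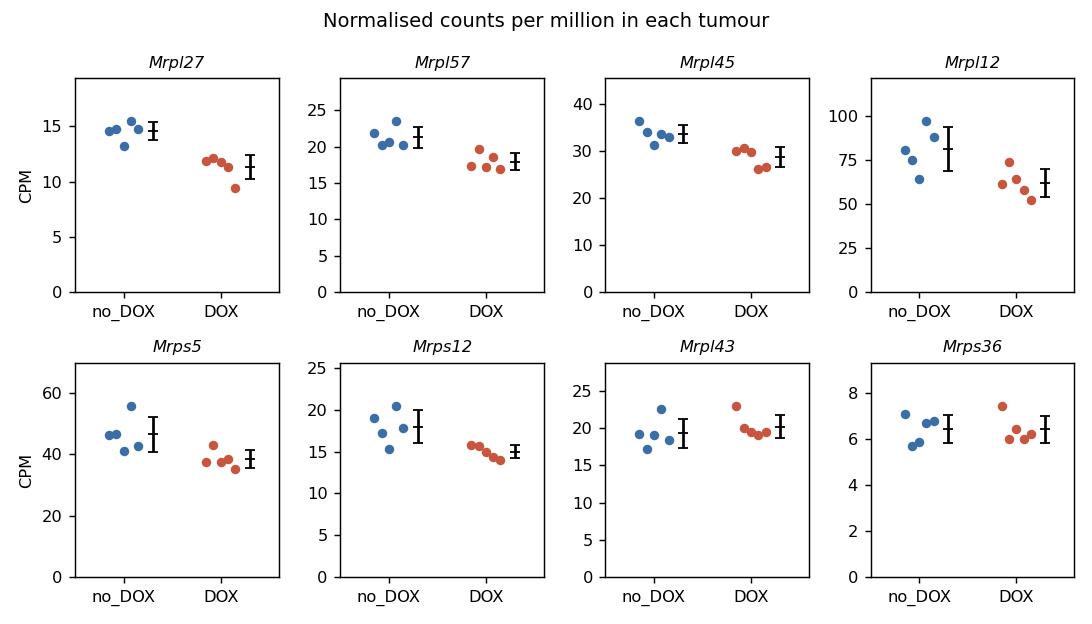
CPM in each tumour (points, y axis from 0) for 8 genes, blue for no_DOX and red for DOX, with the mean and SD as black marks. Groups are apart for Mrpl27, Mrpl57 and Mrpl45, overlap by single tumours for Mrpl12, Mrps5 and Mrps12, and coincide for Mrpl43 and Mrps36.

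Symbols do not always match the place of the protein. Mrps30 and Mrps18a have small-subunit names, but their proteins sit in the large subunit of the mammalian mitochondrial ribosome. Mrps30 averaged 47.0 ± 3.67 CPM without and 40.1 ± 4.11 CPM with doxycycline (SD, n = 5), DOX 2 alone within the control range, at a log2 fold change of -0.22 (edgeR adjusted p = 0.251). The protein of Mrps36 is now known as a component of the 2-oxoglutarate dehydrogenase complex of the citric acid cycle and not of the ribosome. Mrps36 was at 7.09, 5.72, 5.90, 6.72 and 6.81 CPM in controls and at 7.45, 6.00, 6.43, 6.01 and 6.22 CPM with doxycycline. Its groups coincided, at a log2 fold change of -0.0046 (SE 0.11, edgeR adjusted p = 0.988) whose sign turned under DESeq2 (0.0017) and on total counts alone (0.03). Placed by structure, the medians were -0.14 over 26 small-subunit genes and -0.15 over 50 large-subunit genes.

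The genes Mrps18a, Mrps18b and Mrps18c descend from 1 bacterial gene and had log2 fold changes from -0.21 to -0.03. Mrps18a was at 28.1, 27.9, 22.3, 30.5 and 26.2 CPM in controls and at 22.9, 25.6, 23.5, 21.5 and 23.2 CPM with doxycycline, a log2 fold change of -0.21 (SE 0.09, edgeR adjusted p = 0.282). Here no_DOX 3 lay within the DOX range and the other 4 controls above it. Mrps18b, whose product is in the small subunit, averaged 23.8 ± 3.20 CPM without and 21.7 ± 0.834 CPM with doxycycline (SD, n = 5, log2 fold change -0.13, edgeR adjusted p = 0.488). Mrps18c, the paralog that takes the bacterial protein's place in the small subunit and shares 250 of its exonic bases with Gm43511 on the same strand, was at 9.35 ± 0.486 and 9.20 ± 0.788 CPM, with overlapping groups (log2 fold change -0.03, SE 0.09, edgeR adjusted p = 0.910), and its sign turned on total counts alone (0.0026) and without DOX 5 (0.01). The differences between these paralogs' fold changes were not tested.

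Mrpl43 and Mrpl58 stood closest to 0 or above it in the large subunit. Mrpl43, for a mitochondria-specific subunit, was the one member with a positive value and is named for that, after its values were seen. It was at 19.2, 17.1, 19.1, 22.5 and 18.4 CPM in controls and at 23.0, 20.1, 19.5, 19.0 and 19.5 CPM with doxycycline. Its groups overlapped (log2 fold change 0.07, SE 0.09, edgeR adjusted p = 0.714), with DOX 1 the highest tumour and no_DOX 2 the lowest. Mrpl58, which encodes a ribosome-bound hydrolase that frees peptides from stalled ribosomes, was at 19.9 ± 2.82 and 19.8 ± 1.15 CPM (SD, n = 5). Its log2 fold change of -0.0065 (SE 0.10, edgeR adjusted p = 0.982) became 0.02 on total counts alone and between 0.01 and 0.05 when no_DOX 4, no_DOX 5, DOX 4 or DOX 5 was left out.

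Set per kilobase of merged exons, mean levels of the 77 tested genes over the 10 tumours spanned 26.5-fold, from 1.77 RPKM (CPM per kilobase) for Mrpl23 to 46.8 RPKM for Mrpl12, with a median of 10.9. After Mrpl12 the highest in the large subunit were Mrpl34 (36.1 RPKM) and Mrpl28 (27.2 RPKM), both counterparts of bacterial proteins, and in the small subunit Mrps21 (26.8 RPKM), Mrps15 (18.5 RPKM) and Mrps28 (17.9 RPKM). Near the lower end stood Mrpl48 (2.36 RPKM), Mrps33 (3.15 RPKM), Mrpl47 (3.28 RPKM), Mrps10 (3.65 RPKM) and Mrps35 (4.10 RPKM). The order also carries the length of the merged annotated exons. Mrpl48, with 8152 such bases, averaged 20.7 CPM without and 17.9 CPM with doxycycline. Mrps21, with 739, averaged 20.7 and 18.9 CPM. Which annotated transcripts were present was not tested. The differences with doxycycline did not follow RPKM: the median log2 fold change was -0.15 over the 38 higher and -0.15 over the 39 lower genes. It was -0.15 over the 46 members with a bacterial counterpart, 13 of them at an unadjusted p under 0.05, and -0.13 over the 30 tested members specific to mitochondria, with 11.

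Within groups, tumours differed less in these genes than in others of like level: the median SD of log2 CPM was 0.13 over the 77 members and 0.17 over the 8440 genes tested in the same range of mean CPM, and the median size of the log2 fold change was 0.15 against 0.13. The single member that was not tested, Mrpl53, had 0 to 3 counts per tumour, and 695 of its 790 exonic bases overlap the gene Gm42688 on the same strand, so its level was not measured here. In all, 8 members share exonic bases with another gene on the same strand and 28 with one on the opposite strand. Xist and Tsix, which lie on opposite strands, held 418344 and 55 counts over the 10 tumours. These counts alone do not show whether reads of opposite strands were kept apart, which was not tested at the members. Copies at least 97% identical over at least 210 bases were annotated for 14 members. Each copy held at most 3.84% of its member's counts, the most for a copy of Mrps10, and the copy of Mrpl27 held 8 counts where Mrpl27 held 2569. How reads that fit several places were handled is not given in the sources used here.

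Promoters are shown for members from both ends of the range of fold changes, since genes that vary together raise the question of shared promoter letters. The RefSeq promoter table (GRCm38.p6, 250 bases before to 50 after each start) held 69 of the 78 members. The windows were searched on both strands for letters bound by regulators of mitochondrial or MYC-dependent genes: CCGGAAG for ETS-family factors such as GABP, AAGATGGC for YY1, the 10-base palindrome marked below in Mrpl9 for NRF1, and CACGTG, the E-box that MYC binds. No 2 matches of different motifs overlapped in a member's window. The 100-base stretches below lie upstream of the start, read 5′ to 3′ on the gene's strand, with capitals marking a match. Mrpl12 (chr11:120484513-120484612, plus strand) and Mrps12 (chr7:28741822-28741921, minus strand) stand for lower members without a match in the stretch, though the wider window of Mrps12 holds the ETS letters just after the start and the YY1 letters 199 bases before the start. The ETS letters are shown in Mrps18a (chr17:46110886-46110985, plus strand), a lower member, and Mrpl34 (chr8:71464826-71464925, plus strand), a member with high RPKM. They are also shown in Mrpl58 (chr11:115403652-115403751, plus strand), near 0, and Mrpl43 (chr19:45006443-45006542, minus strand), the one above 0. Mrpl9 (chr3:94443218-94443317, plus strand) shows the NRF1 letters and Mrpl20 (chr4:155802778-155802877, plus strand) the E-box.
Mrpl12: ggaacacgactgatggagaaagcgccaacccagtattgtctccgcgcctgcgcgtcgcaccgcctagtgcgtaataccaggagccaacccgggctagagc
Mrps12: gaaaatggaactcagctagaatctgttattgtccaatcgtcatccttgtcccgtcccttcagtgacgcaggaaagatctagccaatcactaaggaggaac
Mrps18a: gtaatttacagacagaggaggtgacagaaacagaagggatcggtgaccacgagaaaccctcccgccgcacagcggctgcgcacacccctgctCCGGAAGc
Mrpl34: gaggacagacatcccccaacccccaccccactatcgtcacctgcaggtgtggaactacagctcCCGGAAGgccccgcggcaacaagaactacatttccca
Mrpl58: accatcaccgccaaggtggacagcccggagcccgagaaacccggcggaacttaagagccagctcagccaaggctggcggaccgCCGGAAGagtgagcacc
Mrpl43: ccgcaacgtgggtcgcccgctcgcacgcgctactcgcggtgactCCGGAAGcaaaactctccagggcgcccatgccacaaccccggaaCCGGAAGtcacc
Mrpl9: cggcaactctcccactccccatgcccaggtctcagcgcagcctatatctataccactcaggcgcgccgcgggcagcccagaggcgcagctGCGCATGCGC
Mrpl20: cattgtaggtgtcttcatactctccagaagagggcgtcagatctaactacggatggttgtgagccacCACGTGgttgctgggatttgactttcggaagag

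The ETS letters were found in 26 of the 69 members (37.7%), against 17.5% of the 10823 tested genes with a promoter in the table. The YY1 letters were found in 12 (17.4% against 4.52%), the NRF1 letters in 3 (4.35% against 1.96%) and the E-box in 5 (7.25% against 9.92%). Of all 27025 genes in the promoter table, 9.08% held the ETS, 2.86% the YY1 and 0.962% the NRF1 letters and 7.09% the E-box. The shares over tested and over all genes rest on 1 promoter per gene. Members were searched in all their windows, 75 for the 69 members. Members with and without a match had close medians: the median log2 fold change was -0.15 with and -0.15 without the ETS letters, -0.15 and -0.15 for YY1, -0.12 and -0.15 for NRF1, and -0.13 and -0.15 for the E-box. A match describes the letters only and shows neither binding nor a cause. Their first base lay 56 and 12 bases before the start in Mrpl43, the member above 0, and 26 bases before it in Mrps18a, one of the lower members.

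Members often start beside another gene. Within 1000 bases of the start, 18 of the 78 members (23.1%) had a protein-coding gene leading away on the opposite strand, against 9.91% of the tested protein-coding genes. Of the 17 such neighbours that were tested, 11 had a negative log2 fold change, with a median of -0.10, a description of the neighbours with no test against the members. Mrps12 starts 172 bases from Sars2, for the mitochondrial seryl-tRNA synthetase (log2 fold changes -0.26 and -0.11). Mrpl30 starts 66 bases from Mitd1, which acts in cell division, with values of opposite sign (-0.26 and 0.26).

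Other genes of mitochondrial translation had mostly values of the same sign and like size, also without a call by edgeR. Limma voom called 3 of 25 assembly factors, 2 of 17 translation factors, 3 of 17 aminoacyl-tRNA synthetases and 1 of 13 regulators lower. It called 0 of the 5 subunits with other symbols, where it called 2.68% of all genes lower. DESeq2 called 1 synthetase and 0 genes of the other lists just named, where it called 0.796% of all genes lower. At an unadjusted p under 0.05, edgeR put 7.83% of all genes lower and 8.2% higher. All 5 subunit genes with other symbols were lower (median log2 fold change -0.16, 1 of them at an unadjusted p under 0.05), among them Ptcd3, for a small-subunit protein, at 123.0 ± 7.03 against 108.9 ± 12.5 CPM (SD, n = 5, edgeR adjusted p = 0.304) and Gadd45gip1, for a large-subunit protein, at 28.8 ± 3.34 against 25.3 ± 2.70 CPM (adjusted p = 0.373). Of 25 assembly factors, 21 were lower and 4 higher (median -0.16), 6 at an unadjusted p under 0.05 in the lower and 1 in the higher direction. Fastkd2, needed to build the large subunit, was at 39.0 ± 2.95 against 31.8 ± 3.25 CPM (log2 fold change -0.29, adjusted p = 0.212 in edgeR and 0.0341 in limma voom). Tfb1m, which methylates the small-subunit rRNA, had a log2 fold change of -0.33 (adjusted p = 0.249). The 1 at an unadjusted p under 0.05 in the higher direction, Mterf3, a regulator of mitochondrial transcription and ribosome assembly named after its values were seen, had 0.28 (adjusted p = 0.251).

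Of 17 translation factors found in the table, 14 were lower and 3 higher (median -0.15). At an unadjusted p under 0.05, 5 were lower and 0 higher, against 7.83% and 8.2% of all genes. Gatb, of the enzyme that makes glutaminyl-tRNA, had -0.33 (edgeR adjusted p = 0.239), and Lrpprc, which stabilises mitochondrial messengers, -0.21 (adjusted p = 0.241 in edgeR and 0.0449 in limma voom). Of 17 mitochondrial aminoacyl-tRNA synthetases, 13 were lower and 4 higher (median -0.11, highest 0.71). Their summed level went the other way, at 802.2 ± 131.7 CPM without and 904.3 ± 211 CPM with doxycycline (SD, n = 5). Here 6 were lower and 0 higher at an unadjusted p under 0.05, against 7.83% and 8.2% of all genes. Ears2, for the glutamyl enzyme, was at 19.3 ± 3.07 against 15.2 ± 1.38 CPM (SD, n = 5, log2 fold change -0.35, edgeR adjusted p = 0.239).

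RNAs from mitochondrial DNA showed smaller values. Of 15 listed, 9 passed the filter, 8 lower and 1 higher (median -0.07), with 0 at an unadjusted p under 0.05 by edgeR and 0 called by DESeq2 or limma voom. The mitochondrial rRNAs mt-Rnr1 and mt-Rnr2 had log2 fold changes of -0.16 (edgeR adjusted p = 0.455) and -0.16 (adjusted p = 0.418), in libraries depleted of ribosomal RNA, so their levels also carry that step. The messenger mt-Cytb was the one above 0, at 0.07. The 6 that were not tested were mt-Nd3, mt-Nd4l, mt-Co2, mt-Co3, mt-Atp6 and mt-Atp8, with 0 to 3 counts per tumour. Their levels could not be compared, and the median covers only the other 9. Whether so few counts reflect low levels or lost reads was not tested.

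Among 13 regulators of nuclear genes for mitochondria, 11 were lower and 2 higher (median -0.12). At an unadjusted p under 0.05, 3 were lower and 0 higher, against 7.83% and 8.2% of all genes. Tfam, which packages and transcribes mitochondrial DNA, was at 40.7 ± 3.41 against 35.1 ± 2.04 CPM (SD, n = 5), and Tefm, a mitochondrial elongation factor, at 8.06 ± 0.799 against 6.53 ± 0.395 CPM. All 5 DOX tumours lay below every control for each, as for 1.13% of all genes (edgeR adjusted p = 0.239 and 0.241, limma voom 0.0428 and 0.0657). Myc itself was at 376.9, 397.2, 425.1, 607.5 and 359.7 CPM in controls and at 294.2, 511.3, 348.0, 414.9 and 314.5 CPM with doxycycline. The groups overlapped widely (log2 fold change -0.20, SE 0.18, edgeR adjusted p = 0.582). The highest tumour of each group for Myc, no_DOX 4 and DOX 2, was also the highest in its group for most members, whereas no_DOX 3, the lowest control for most members, was the second highest control for Myc. Whether reads from the Wap-Myc transgene are counted at the Myc gene was not tested. The part of Myc in the members' levels was not tested either.

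Cytosolic ribosomal protein genes mostly had the same sign: 79 of the 80 tested, of 83 listed, were lower (median -0.11), with 6 at an unadjusted p under 0.05 (7.5%, where all genes had 7.83%) and 0 higher. The examples with the smallest p were Rpl27 at 121.1 ± 7.91 against 106.9 ± 8.58 CPM (SD, n = 5, edgeR adjusted p = 0.258) and Rpl8 at 631.4 ± 49.9 against 550.1 ± 53.7 CPM (adjusted p = 0.267), both of the large cytosolic subunit. The share with a negative fold change was 98.8% here and 98.7% among the mitochondrial ribosomal proteins. The difference between the lists was not tested.

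**Figure D5:**
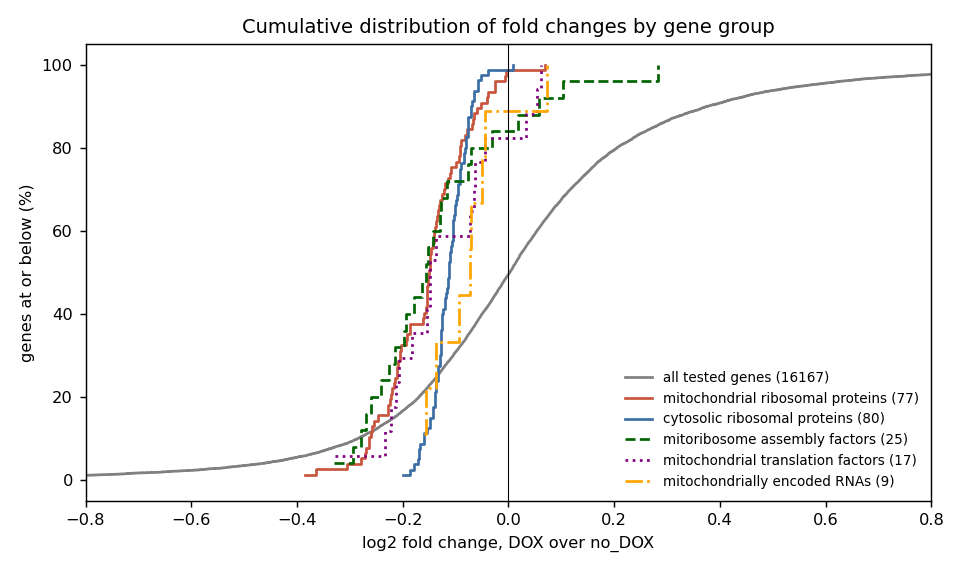
Cumulative share of genes (y axis, %) at or below each log2 fold change (x axis, DOX over no_DOX, drawn from -0.8 to 0.8), one line per gene group with its number of tested genes. The lines of mitochondrial and cytosolic ribosomal proteins rise almost wholly below 0, and that of all genes crosses 0 near 49.5%. At 0, the line of mitochondrially encoded RNAs lies between these, at 88.9%.

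Marker RNA of some cell types differed between the groups, and only the fibroblast sums did not overlap. Fibroblast markers had summed levels of 2081 to 4001 CPM in controls and 792.2 to 1768 CPM with doxycycline. All 6 were lower (median log2 fold change -1.13), 4 of them at an unadjusted p under 0.05, as were 7.83% of all genes. DESeq2 called 3 of the 6 and limma voom 4 lower, against 0.796% and 2.68% of all genes. Col1a1 and Col1a2, for type I collagen, lay lower in every DOX tumour than in any control, as did 1.13% of all genes. DESeq2 also called 1 adipocyte marker lower, and limma voom 1 basal marker higher. Endothelial markers were lower in 5 of 5 (86.5 to 114.7 against 68.1 to 92.9 CPM in sum). Epithelial markers were higher in 5 of 6 (1130 to 1600 against 1152 to 1807 CPM), basal and myoepithelial markers in 6 of 6 (52.4 to 271.2 against 78.7 to 539.6 CPM) and macrophage markers in 4 of 5 (192.3 to 278.7 against 222.9 to 328.0 CPM). T and NK cell markers summed to 3.75 to 5.12 against 0.859 to 7.61 CPM (3 of 4 tested lower), and adipocyte markers to 43.3 to 55.9 against 24.3 to 44.2 CPM (1 of 2 tested lower). The defining B cell markers were near 0, at 0 to 8 counts each, and skeletal muscle markers reached 43.0 CPM in sum, high in no_DOX 5, DOX 1 and DOX 3. The control no_DOX 3, low in most members, had the highest epithelial sum and the highest fibroblast sum of the controls, and DOX 5, low in most members, had the highest epithelial and basal sums of all. The part of cell make-up in the members' values was not tested.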

How the data were processed

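Whole-tumour RNA depleted of ribosomal RNA was read single-end to 75 bp from directional libraries, per the labels' protocols. The authors deposited whole-number read counts per Ensembl gene, not normalised. STAR 2.6.0c and the build GRCm38 are named, with no role given, beside featureCounts, bcl2fastq, DESeq2 and Trimmomatic, per the submitters' processing notes. Which annotation release and strand setting were used is not given in the sources used here. For 55154 of the 55335 identifiers a name table gave a symbol, and coordinates and exons came from GENCODE M21 and promoters from RefSeq.

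All genes were tested together with edgeR 4.0.16 in R 4.3.3 (TMM, filterByExpr with minimum count 10 and total 15, quasi-likelihood test, Benjamini-Hochberg, threshold 0.05), without a block. A check on simulated data used changes larger than those of the members, so it does not cover changes of their size. The SE is the log2 fold change divided by the square root of F. CPM use TMM-scaled library sizes. Alternatives were DESeq2 1.42.0, limma 3.58.1 voom with sample weights, other scalings and filters, a robust fit, a replicate block and leaving tumours out. The members and gene lists were chosen with earlier results of these data known. Counts of a list are set beside the same share over all genes tested, with no test over the list. Named members were the 6 per subunit with the smallest p, the 3 with the highest and 3 with the lowest RPKM, Mrps18a, Mrps18b, Mrps18c, Mrps30, Mrps36, Mrpl58, Mrpl12, Mrps12, those whose groups do not overlap, and the 2 genes with the smallest p of each other list, of which 1 is not reported here.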

Additional observations from a re-analysis of the deposited data

Results flagged for a closer look

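Among 58 groups of 5 tumours checked for the named members and list levels, 3 held a tumour far from the other 4, where chance flags about 1 in 20 groups. Mrps15, for a small-subunit protein with a bacterial counterpart, was at 29.1 CPM in no_DOX 3, and the other controls lay between 33.5 and 34.4 CPM. Mrps28, also of the small subunit, was at 12.8 CPM in no_DOX 3, with the other controls between 14.8 and 15.5 CPM. Mrps35, for a mitochondria-specific subunit, was at 38.4 CPM in DOX 2, with the other DOX tumours between 32.6 and 34.2 CPM.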

How the results depend on the processing

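Every alternative kept the median log2 fold change of both subunits below 0, between -0.11 and -0.19 for the small and between -0.12 and -0.20 for the large subunit when 1 tumour was left out at a time. The 0 members called by edgeR became 1 under DESeq2 and 9 under limma voom. The 24 members at an unadjusted p under 0.05 became 52 under limma voom (14.2% of all genes under that test), 12 on total counts alone, 15 with the replicate block (7.99% of all genes), 11 to 45 with 1 tumour left out and 7 without no_DOX 4 and DOX 5. Same-numbered tumours deviated together only weakly (correlation 0.07 to 0.26, over 0.1 in 4 of 5 pairs). Tumours of different number ran from -0.36 to 0.39, and 2 of 5 controls correlated best with their own number. The numbers were not taken to pair tumours, though these values do not exclude pairing. With the replicate block edgeR called 0 members and 7 of all genes.

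Of the 27 named members under 19 alternatives each, 483 results kept sign and side of the threshold, 8 passed it and 22, in 4 members with log2 fold changes near 0, turned sign. For Mrpl58 these were 0.023 on total counts alone, 0.0003 with a filter of 1 CPM in 5 tumours, 0.0047 with the replicate block, -0.080 to 0.051 with 1 tumour left out and 0.070 without no_DOX 4 and DOX 5. For Mrps36 they were 0.0017 under DESeq2, 0.028 on total counts alone, 0.0021 with the 1 CPM filter, -0.063 to 0.032 with 1 tumour left out and 0.018 without the pair. Mrps18c gave 0.0026 on total counts alone, -0.071 to 0.014 with 1 tumour left out and 0.011 without the pair, and Mrps33 gave -0.13 to -0.0067 with 1 tumour left out and 0.042 without the pair. The cause was not tested. The members that turned sign had log2 fold changes smaller than their standard errors.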
